A study of Mus musculus with 6 samples.

Results

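The transcripts of Myc and its Max network partners were followed in intestinal tumor organoids that carried wild-type, null or R270H mutant Trp53. The set was chosen by gene symbol, as Myc, Mycn, Max, Mxd1, Mxi1, Mxd3, Mxd4, Mnt and Mga, and all 9 were found among the 36172 genes of the table. Myc was the highest of the 9 in every library. It was 2.29-fold lower in Trp53R270H/R270H than in Trp53+/+ organoids and lay between them in Trp53flox/flox organoids, while Max stayed between 39.1 and 50.7 RPKM. The summed transcripts of the 6 Myc antagonists had nearly equal means in the 3 genotypes, although the Trp53flox/flox libraries stood apart at 37.3 and 53.8 RPKM. Single antagonists also moved apart, with Mxi1 falling in Trp53R270H/R270H organoids.

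The organoids were grown from small intestinal tumors of C57BL/6 mice aged 15 to 20 weeks with the Apc(D716) allele, a truncation of Apc at codon 716, and by the labels every group had loss of heterozygosity at Apc. The groups differed at Trp53 and had 2 libraries each: Trp53+/+ with the wild-type gene, Trp53flox/flox with a homozygous null mutation, and Trp53R270H/R270H with a homozygous missense mutation at codon 270 (R270H). The Trp53flox/flox alleles are R270H alleles silenced by a stop cassette, and villin-CreER, a tamoxifen-activated recombinase driven in intestinal epithelium, removes that cassette to give the R270H genotype. Poly(A) RNA was sequenced, and values are RPKM, that is, reads scaled by transcript length and by the number of mapped reads, so that levels of different genes can be set side by side.

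Myc is a transcription factor that binds DNA as a dimer with Max and raises the transcription of genes for ribosome production, nucleotide and polyamine synthesis and cell growth. The Mxd proteins, Mnt and Mga also dimerize with Max, bind the same E-box sequence and recruit repressive complexes, so that they compete with Myc for Max and for DNA. In the intestine, Myc is a target gene of Wnt/β-catenin signaling, and it is required for tumor formation after Apc is lost.

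Trp53 (chromosome 11, 69580348 to 69591873, GRCm38.p6) was measured first as a check of the labels. It was at 75.9 and 74.3 RPKM in the Trp53+/+ libraries, 1.73 and 2.48 RPKM in Trp53flox/flox and 72.8 and 82.7 RPKM in Trp53R270H/R270H, so that the null genotype was low and the missense genotype was not. No value in the table was below 1 RPKM, and a gene at this floor may have any lower level. Depth, read from the steps of 1 read in short RNA genes, was about 44.2 M to 48.4 M reads. The Trp53flox/flox libraries stood farther apart than the others, with r = 0.932 between them across 10042 genes against 0.996 in Trp53+/+ and 0.993 in Trp53R270H/R270H. All 8 markers of intestinal epithelium were above the floor, with summed levels of 2697 to 2734 RPKM in Trp53+/+, 4022 to 4270 in Trp53flox/flox and 2228 to 2372 in Trp53R270H/R270H. Krt8, Krt18 and Krt19 made up most of each sum. In the same order of genotypes, the means of Epcam were 293, 352 and 340 RPKM and those of Cdh1 216, 239 and 205. Vil1 had means of 112, 128 and 99.1 RPKM, Cdx2 of 48.9, 78.5 and 45.2 and Krt20 of 3.54, 2.63 and 4.61. Of the fibroblast markers, 3 of 6 were at the floor in all libraries and the sums were 6 to 7.72 RPKM, where 6 is the sum of 6 floor values. Of the leukocyte markers, 5 of 6, including Ptprc, were at the floor in all libraries, with sums of 14.9 to 15.2 RPKM in Trp53+/+, 7.06 to 16.1 in Trp53flox/flox and 7.22 to 7.41 in Trp53R270H/R270H, of which Cd68 made up the part above the floor. Of the endothelial markers, 2 of 4, Pecam1 and Kdr, were at the floor in all libraries, with sums of 14.9 to 15.3, 4 to 26.7 and 4.13 to 4.20 RPKM from Cdh5 and Tek. The part of these marker differences in the results on the Myc network was not tested.

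Myc (gene ID 17869, chromosome 15, 61985341 to 61990361) was at 97.3 and 104 RPKM in Trp53+/+, 80.2 and 77.7 RPKM in Trp53flox/flox and 41.4 and 46.5 RPKM in Trp53R270H/R270H. The 3 genotypes did not overlap, and both Trp53R270H/R270H libraries were the lowest. With 2 libraries a genotype such a separation is common: the libraries did not overlap in 81.8% of all genes tested for Trp53R270H/R270H against Trp53+/+, in 64.5% for Trp53flox/flox against Trp53+/+ and in 68.0% for Trp53R270H/R270H against Trp53flox/flox. The means were 101 ± 4.70, 78.9 ± 1.81 and 43.9 ± 3.59 RPKM (SD, n = 2 each). In Trp53R270H/R270H organoids Myc fell against Trp53+/+ by 1.18 on the log2(RPKM+1) scale (SE 0.11, 95% interval -1.45 to -0.91, limma adjusted p = 0.00548), and it fell by 0.83 against Trp53flox/flox (-1.10 to -0.56, adjusted p = 0.0101), which is 1.80-fold by the means. Between Trp53flox/flox and Trp53+/+ the difference was -0.35 (-0.62 to -0.08, adjusted p = 0.0929). The 399 other genes tested on chromosome 15 had median log2 differences from the Trp53+/+ mean between -0.05 and -0.01 in the 4 mutant libraries. The part of the chromosome in the Myc result was not tested. In these bulk samples, fewer Myc-expressing cells and less Myc RNA per cell cannot be told apart.

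The size of the Myc difference was stable, but its call in Trp53R270H/R270H against Trp53+/+ was lost without any 1 library of those genotypes. Leaving out a Trp53+/+ or Trp53R270H/R270H library lowered the calls over all genes as well, so this loss is not particular to Myc. Over all alternatives the Trp53R270H/R270H to Trp53+/+ difference stayed between -1.26 and -1.10. The adjusted p was 0.0791 and 0.0989 without Trp53+/+ replicate 1 or 2, and 0.0750 and 0.0565 without Trp53R270H/R270H replicate 1 or 2. Against Trp53flox/flox the adjusted p was 0.0579 and 0.0580 without a Trp53+/+ library, and 0.113 and 0.0662 without Trp53R270H/R270H replicate 1 or 2. The Trp53flox/flox to Trp53+/+ difference was -0.37 without Trp53flox/flox replicate 1 and -0.32 without replicate 2. It passed the threshold in both of those fits. Leaving out a Trp53flox/flox library raised the calls over all genes as well, so this gain is not particular to Myc.

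Mycn (gene ID 18109, chromosome 12, 12936093 to 12941836), which encodes the N-Myc paralog used mainly in embryonic and neural tissue, was listed at 1 RPKM, the floor, in all 6 libraries. It was not tested.

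Max (gene ID 17187, chromosome 12, 76937269 to 76962323), the shared dimer partner, was at 39.1 and 40.8 RPKM in Trp53+/+, 50.7 and 41.2 RPKM in Trp53flox/flox and 41.1 and 43.0 RPKM in Trp53R270H/R270H. One Trp53flox/flox library was the highest and the other genotypes lay close together. The difference between Trp53R270H/R270H and Trp53+/+ was 0.07 on the log2 scale (95% interval -0.25 to 0.40, adjusted p = 0.740). It was 0.19 for Trp53flox/flox against Trp53+/+ (-0.14 to 0.52, adjusted p = 0.328). Without Trp53flox/flox replicate 2 that second difference was 0.34, and without replicate 1 it was 0.04, so the higher Max came from replicate 1.

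**Figure D1:**
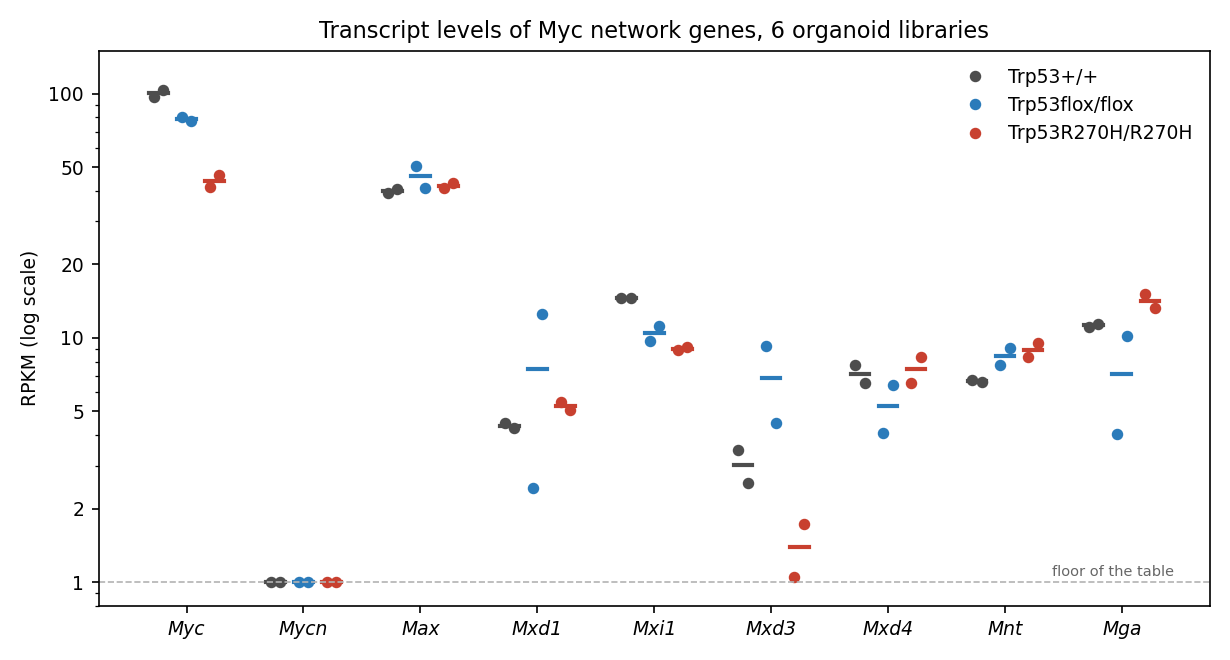
Transcript levels of the 9 network genes in RPKM (log axis), with 1 point per library, horizontal bars at the genotype means and a dashed line at the floor of 1 RPKM. Myc steps down from 97.3 and 104 RPKM in Trp53+/+ to 41.4 and 46.5 RPKM in Trp53R270H/R270H, Max stays between 39.1 and 50.7 RPKM, and the Trp53flox/flox points of Mxd1 and Mga lie far apart.

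Among the Mxd proteins, which compete with Myc for Max, Mxi1 (gene ID 17859, chromosome 19, 53310128 to 53373293) had the highest genotype means, although Mxd1 stood above it in Trp53flox/flox replicate 2. Mxi1 was at 14.5 and 14.6 RPKM in Trp53+/+, 9.74 and 11.2 RPKM in Trp53flox/flox and 8.93 and 9.16 RPKM in Trp53R270H/R270H. As for Myc, both Trp53+/+ libraries were the highest, both Trp53R270H/R270H libraries were the lowest and no genotypes overlapped. Mxi1 fell by 0.63 on the log2 scale in Trp53R270H/R270H against Trp53+/+ (SE 0.11, 95% interval -0.91 to -0.35, limma adjusted p = 0.0288), a 1.61-fold lower mean. The difference between Trp53flox/flox and Trp53+/+ was -0.44 (-0.72 to -0.16, adjusted p = 0.0646). Without Trp53+/+ replicate 1 or 2 the adjusted p of the Trp53R270H/R270H difference was 0.247 and 0.271, and without Trp53R270H/R270H replicate 1 or 2 it was 0.236 and 0.188. Without Trp53flox/flox replicate 1 or 2 the Trp53flox/flox difference was -0.35 and -0.53. It passed the threshold in both of those fits, in which the calls over all genes rose as well.

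Mxd3 (gene ID 17121, chromosome 13, 55325170 to 55329900), the Mxd gene associated with dividing cells, was at 3.47 and 2.54 RPKM in Trp53+/+, 9.25 and 4.48 RPKM in Trp53flox/flox and 1.05 and 1.73 RPKM in Trp53R270H/R270H. The genotypes did not overlap, with Trp53flox/flox highest, and Trp53R270H/R270H replicate 1 was close to the floor. Mxd3 entered the tests only through its 2 Trp53flox/flox values, since no other library reached the filter of 4 RPKM. Its mean was 4.95-fold lower in Trp53R270H/R270H than in Trp53flox/flox, a log2 difference of -1.67 (95% interval -2.55 to -0.78). The adjusted p of 0.0286 is no independent support for that difference, since the group with the high values is the one that admitted the gene. Against Trp53+/+ it was at -0.75 in Trp53R270H/R270H (adjusted p = 0.211) and at 0.91 in Trp53flox/flox (adjusted p = 0.135).

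Mxd3 overlaps Prelid1, a mitochondrial lipid transfer gene at 161 to 456 RPKM, and Prelid1 differed by 0.91 in Trp53flox/flox against Trp53+/+ (adjusted p = 0.0383) and by -1.20 in Trp53R270H/R270H against Trp53flox/flox (adjusted p = 0.0144). The library kit marked strand, but whether strand was used in counting is not given in the sources used here. The 356 genes tested on chromosome 13 had median log2 differences from the Trp53+/+ mean of -0.29 and -0.38 in the Trp53R270H/R270H libraries, against 0.02 and 0.04 over all genes, and of -0.09 and -0.07 in Trp53flox/flox, where Mxd3 itself was higher. The part of Prelid1 and of the chromosome in the Mxd3 result was not tested. The adjusted p for Trp53R270H/R270H against Trp53flox/flox was 0.0885 and 0.0883 without Trp53+/+ replicate 1 or 2, and 0.209 and 0.124 without Trp53R270H/R270H replicate 1 or 2. Without Trp53flox/flox replicate 2 the Trp53flox/flox to Trp53+/+ difference was 1.37, and without replicate 1 it was 0.46.

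Mxd1 (gene ID 17119, chromosome 6, 86647044 to 86669234), a repressor linked to terminal differentiation, was at 4.48 and 4.26 RPKM in Trp53+/+, 2.44 and 12.5 RPKM in Trp53flox/flox and 5.47 and 5.06 RPKM in Trp53R270H/R270H. The Trp53flox/flox libraries held both the lowest and the highest value and were 5.12-fold apart. Their difference from Trp53+/+ was -0.64 with replicate 1 alone and 1.33 with replicate 2 alone, so no direction can be given for Trp53flox/flox. With all libraries, Mxd1 differed by 0.22 between Trp53R270H/R270H and Trp53+/+ (SE 0.62, adjusted p = 0.841).

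Mxd4 (gene ID 17122, chromosome 5, 34176580 to 34187710) was at 7.76 and 6.53 RPKM in Trp53+/+, 4.09 and 6.41 RPKM in Trp53flox/flox and 6.56 and 8.33 RPKM in Trp53R270H/R270H. Both Trp53flox/flox libraries were the lowest, while Trp53+/+ and Trp53R270H/R270H overlapped. The differences from Trp53+/+ were 0.05 in Trp53R270H/R270H (95% interval -0.53 to 0.63, adjusted p = 0.911) and -0.40 in Trp53flox/flox (-0.98 to 0.18, adjusted p = 0.262). In Trp53flox/flox replicate 1, where Mxd4 was lowest, the 652 genes tested on chromosome 5 had a median of 0.29 above the Trp53+/+ mean, in the opposite direction. Without Trp53flox/flox replicate 2 the Trp53flox/flox difference from Trp53+/+ was -0.67, and without replicate 1 it was -0.13.

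Mnt and Mga bind Max as well, but are larger proteins outside the Mxd family. Mnt (gene ID 17428, chromosome 11, 74830806 to 74845725), a broadly expressed repressor, was at 6.70 and 6.58 RPKM in Trp53+/+, 7.72 and 9.07 RPKM in Trp53flox/flox and 8.32 and 9.56 RPKM in Trp53R270H/R270H. Both Trp53+/+ libraries were the lowest, and the mutant genotypes overlapped. The difference between Trp53R270H/R270H and Trp53+/+ was 0.38 (95% interval 0.04 to 0.71, adjusted p = 0.123) and that between Trp53flox/flox and Trp53+/+ was 0.29 (-0.04 to 0.63, adjusted p = 0.180). The former uses no Trp53flox/flox value, so leaving out a Trp53flox/flox library cannot change its size and is no check of it.

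Mga (gene ID 29808, chromosome 2, 119872503 to 119970129), which carries a Max-binding domain and a T-box and belongs to a Polycomb complex, was at 11.1 and 11.4 RPKM in Trp53+/+, 4.03 and 10.2 RPKM in Trp53flox/flox and 15.2 and 13.3 RPKM in Trp53R270H/R270H. Both Trp53R270H/R270H libraries were the highest, both Trp53flox/flox libraries were the lowest, and the latter were 2.52-fold apart. Mga was 2.01-fold higher by the means in Trp53R270H/R270H than in Trp53flox/flox, with a log2 difference of 1.02 (95% interval 0.08 to 1.97, adjusted p = 0.1005). This difference was 0.45 without Trp53flox/flox replicate 1 and 1.595 without replicate 2, so its size depended on which Trp53flox/flox library was kept. Against Trp53+/+ the Trp53R270H/R270H difference was 0.31 (-0.64 to 1.25, adjusted p = 0.616).

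**Figure D2:**
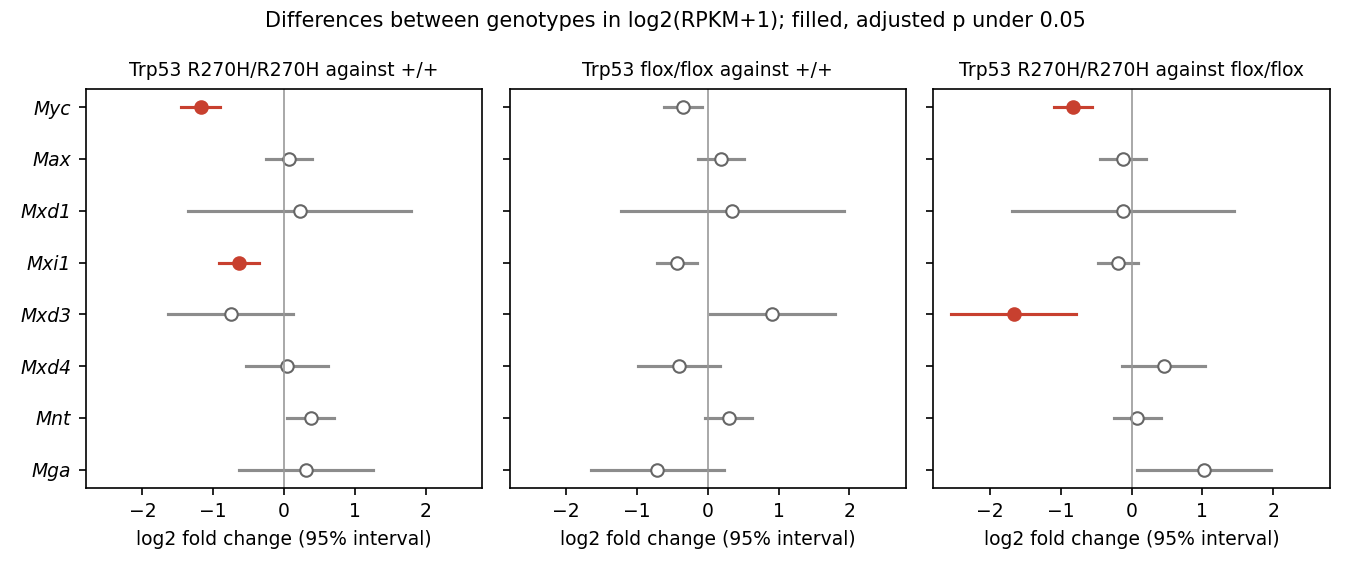
Differences on the log2(RPKM+1) scale for the 8 network genes tested, with points for the estimate, lines for the 95% interval from limma and 1 panel per comparison of genotypes. Filled red points passed an adjusted p of 0.05: Myc and Mxi1 in Trp53R270H/R270H against Trp53+/+, none in Trp53flox/flox against Trp53+/+, and Myc and Mxd3 in Trp53R270H/R270H against Trp53flox/flox, where Mxd3 had entered only through its Trp53flox/flox values.

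Of the 8 network genes tested, 2 were called lower and 0 higher in Trp53R270H/R270H against Trp53+/+, where 6.36% of all 10042 genes were called lower and 12.2% were called in either direction. The 8 genes had a median log2 difference of 0.06, against 0.03 over all genes. In Trp53flox/flox against Trp53+/+, limma called 0 of the 8, where 11.3% of all genes were called. At an unadjusted p under 0.05, Myc and Mxi1 passed there, as did 34.7% of all genes. Mxd3 passed too, but it entered through its Trp53flox/flox values and is no support for a count. The median difference of the 8 was -0.08 against -0.02 over all genes. In Trp53R270H/R270H against Trp53flox/flox, Myc was called lower and 0 were called higher, beside Mxd3, which was called lower after entering through its Trp53flox/flox values and is no support for a count, where 11.0% of all genes were called lower and 24.6% in either direction, and the median was -0.12 against 0.03. The 3 comparisons share libraries and are not independent of each other. By the rule of a 2-fold difference between genotype means, Myc and Mxd3 were lower in Trp53R270H/R270H than in Trp53+/+, where 6.09% of all genes were lower by that rule, and Mxd3, through the values that admitted it, was higher in Trp53flox/flox than in Trp53+/+, where 4.54% were higher. Between Trp53R270H/R270H and Trp53flox/flox, Mga was higher by that rule, as were 7.88% of all genes. Mxd3, again through the values that admitted it, was lower there, as were 7.51%.

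The genes also differed in which genotype stood outside the other 4 libraries. Both Trp53R270H/R270H libraries were the lowest for Myc, Mxi1 and Mxd3, as for 18.7% of all genes, and the highest for Mga, as for 26.5%. Both Trp53+/+ libraries were the highest for Myc and Mxi1, as for 17.1% of all genes, and the lowest for Max and Mnt, as for 15.6%. Both Trp53flox/flox libraries were the highest for Mxd3, as for 19.9% of all genes, and the lowest for Mxd4 and Mga, as for 22.2%. Mxd3 had entered only through its Trp53flox/flox values, so its places here are no support for a count.

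The wide spread of the Trp53flox/flox pair entered every test, because the 3 genotypes shared 1 estimate of the spread. When limma was fitted to Trp53+/+ and Trp53R270H/R270H alone, 6 of the 8 genes passed: Myc, Mxi1 and Mxd3 (adjusted p = 0.0220) were lower and Mxd1 (0.0483), Mnt (0.0178) and Mga (0.0282) were higher. The share of all genes called by that fit was 57.0%. Fitted to the other pairs alone, limma called 0 of the 8 genes against Trp53flox/flox, where 3.76% of all genes passed for Trp53R270H/R270H and 0.468% for Trp53+/+. At an unadjusted p under 0.05 in the fit of all 3 genotypes, 3209 to 4269 genes passed in each comparison.

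The order of the transcripts within a genotype differed mainly below Max. In Trp53+/+ organoids it was Myc, Max, Mxi1, Mga, then Mxd4 and Mnt, whose libraries overlapped, then Mxd1, Mxd3 and Mycn. In Trp53flox/flox organoids the libraries of Mnt, Mxd1, Mga, Mxd3 and Mxd4 overlapped from each to the next, and no order among them can be given. In Trp53R270H/R270H organoids Myc and Max overlapped, Mga stood above Mxi1, and Mxi1, Mnt and Mxd4 overlapped from each to the next.

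The balance of the network was described by the ratio of Myc to the summed transcripts of its antagonists Mxd1, Mxi1, Mxd3, Mxd4, Mnt and Mga. Mycl, the L-Myc paralog, was not counted with Myc, although at 75.9 and 74.1 RPKM it stood above Myc in Trp53R270H/R270H. Its levels were 55.7 and 51.7 RPKM in Trp53+/+ and 42.5 and 36.0 RPKM in Trp53flox/flox. No ratio that includes Mycl was computed, so the values below are for Myc alone. The antagonist sums were 48.0 and 45.9 RPKM in Trp53+/+, 37.3 and 53.8 RPKM in Trp53flox/flox and 45.5 and 47.1 RPKM in Trp53R270H/R270H. The ratio of Myc to this sum was 2.03 and 2.27 in Trp53+/+, 2.15 and 1.44 in Trp53flox/flox and 0.910 and 0.986 in Trp53R270H/R270H. Myc transcripts thus exceeded those of the antagonists in all libraries of the first 2 genotypes and were just below them in both Trp53R270H/R270H libraries. That last direction depends on which antagonists are summed, and only Mga was left out as a variant. Without Mga the ratios were 1.37 and 1.37 in Trp53R270H/R270H, above 1, and 1.78 to 3.02 in the other 4 libraries. The mean ratios were 2.15 ± 0.169, 1.80 ± 0.502 and 0.948 ± 0.0536 (SD, n = 2 each). An exact two-sided permutation test gave p = 0.333 for Trp53R270H/R270H against either other genotype, which is the smallest p that 2 libraries against 2 allow. The ratio of Myc to Max was 2.49 and 2.55 in Trp53+/+, 1.58 and 1.88 in Trp53flox/flox and 1.01 and 1.08 in Trp53R270H/R270H. Transcript ratios do not measure the proteins or their dimers.

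**Figure D3:**
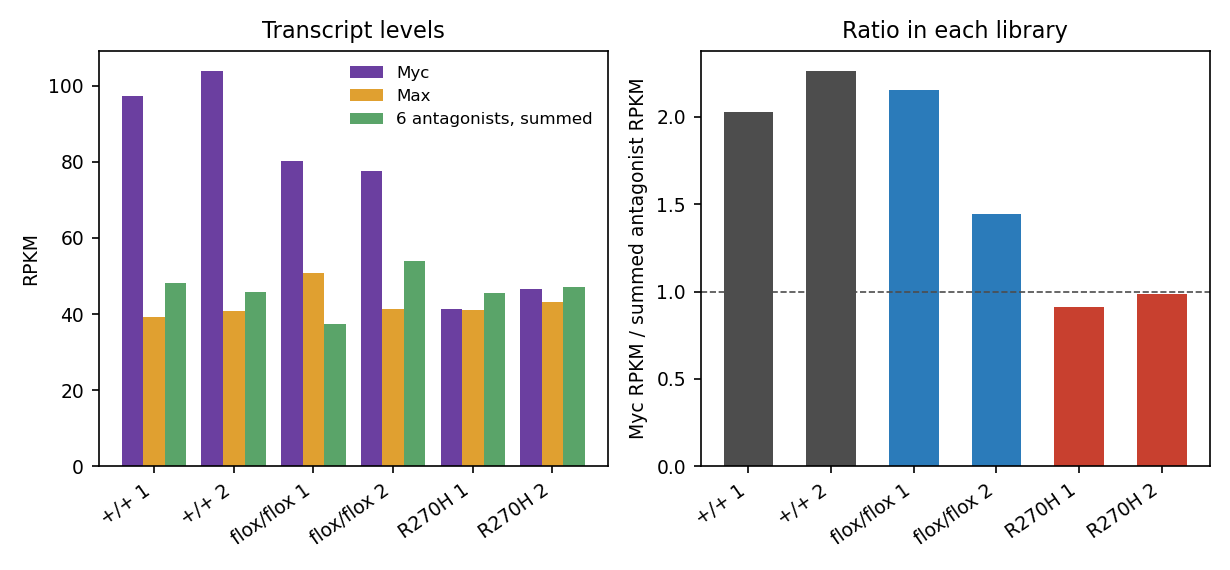
Left, RPKM of Myc, Max and the sum of the 6 antagonists in each library as bars from 0; right, the ratio of Myc to the antagonist sum in each library as bars, with a dashed line where they are equal. The ratio is 0.910 and 0.986 in the Trp53R270H/R270H libraries and 1.44 to 2.27 in the other 4. The antagonist sum has means of 47.0, 45.5 and 46.3 RPKM in the 3 genotypes, and its Trp53flox/flox libraries are at 37.3 and 53.8 RPKM.

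The E-box CACGTG, the preferred site of Myc and Max dimers, was looked for in the promoters from 250 bases before to 50 bases after each gene start (RefSeq, GRCm38.p6). It reads the same on both strands, and positions are counted from the start of the promoter entry, which for Max and Mnt lies inside the gene span given above. It was present for 8.09% of 27025 genes with a promoter and for 12.5% of the 8086 tested genes among them. Of the 9 network genes 8 were matched, all but Myc, and 3 of the 8 held the motif, namely Max, Mnt and Mxd4. Their windows of 30 bases are shown because these genes are themselves part of the network that reads this motif. The motif is in capitals, and its first base is 3 bases before that start for Max, 123 before it for Mnt and 219 before it for Mxd4.
Max (chr12:76962234-76962263, minus strand): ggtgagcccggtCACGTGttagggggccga
Mnt (chr11:74830789-74830818, plus strand): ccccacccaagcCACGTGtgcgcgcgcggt
Mxd4 (chr5:34187912-34187941, minus strand): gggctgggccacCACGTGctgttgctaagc

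None of these 3 genes was called in any comparison when all 3 genotypes were fitted together. A match of 6 bases is a description of the sequence and not a measured binding site. Mxi1 and Mxd3 held no match in this window.

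The Mycl and Mlx arm of the network, which uses Mlx in place of Max for the glucose-responsive factors Mlxip and Mlxipl and their targets Txnip and Arrdc4, was listed together with Mycl, the L-Myc paralog. Of these 6 genes, 1 rose and 2 fell in Trp53R270H/R270H against Trp53+/+, 0 rose and 2 fell in Trp53flox/flox against Trp53+/+, and 2 rose and 0 fell in Trp53R270H/R270H against Trp53flox/flox. Their median log2 differences were 0.21, -0.41 and -0.02. For this and the following lists, 12.2%, 11.3% and 24.6% of all genes were called in the 3 comparisons in that order, and 3209, 3489 and 4269 of the 10042 genes had an unadjusted p under 0.05.

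Mycl was at 55.7 and 51.7 RPKM in Trp53+/+, 42.5 and 36.0 RPKM in Trp53flox/flox and 75.9 and 74.1 RPKM in Trp53R270H/R270H. It was highest where Myc was lowest, and in both Trp53R270H/R270H libraries it stood above Myc, while it stood below Myc in the other 4. Mycl rose by 0.92 on the log2 scale in Trp53R270H/R270H against Trp53flox/flox (95% interval 0.62 to 1.22, adjusted p = 0.0101), and its difference from Trp53+/+ was 0.48 (0.18 to 0.77, adjusted p = 0.0599). Mlxipl, the carbohydrate response factor ChREBP, was at 4.90 and 4.42 RPKM in Trp53+/+, 3.58 and 3.19 RPKM in Trp53flox/flox and 8.44 and 10.002 RPKM in Trp53R270H/R270H. It rose by 0.85 in Trp53R270H/R270H against Trp53+/+ (adjusted p = 0.0242) and by 1.22 against Trp53flox/flox (adjusted p = 0.00769).

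The 2 target genes of this arm were lower than in Trp53+/+ in both mutant genotypes. Txnip, an inhibitor of glucose uptake and thioredoxin, was at 174 and 179 RPKM in Trp53+/+, 61.1 and 92.9 RPKM in Trp53flox/flox and 67.6 and 71.0 RPKM in Trp53R270H/R270H. Its log2 differences from Trp53+/+ were -1.22 in Trp53flox/flox (adjusted p = 0.0298) and -1.34 in Trp53R270H/R270H (adjusted p = 0.0212). Arrdc4, an arrestin relative of Txnip, was at 21.4 and 22.5 RPKM in Trp53+/+, 7.88 and 10.7 RPKM in Trp53flox/flox and 6.44 and 6.43 RPKM in Trp53R270H/R270H. It differed by -1.17 in Trp53flox/flox (adjusted p = 0.0195) and by -1.62 in Trp53R270H/R270H (adjusted p = 0.00640). Mlxipl differed from Trp53+/+ by -0.37 in Trp53flox/flox (adjusted p = 0.133), the same direction as its targets, and in the opposite direction in Trp53R270H/R270H.
Mlxipl (chr5:135089780-135089809, plus strand): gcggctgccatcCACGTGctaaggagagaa
Arrdc4 (chr7:68749414-68749443, minus strand): aaaggtcctgtgCACGTGcactatggtgtc

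These windows are shown because Mlxipl and Arrdc4 are the called genes of this arm whose promoter held the motif. Txnip and Mycl were also called and held no match in this window. The E-box was in the promoters of 3 of the 6 genes, Mlx, Mlxipl and Arrdc4.

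**Figure D4:**
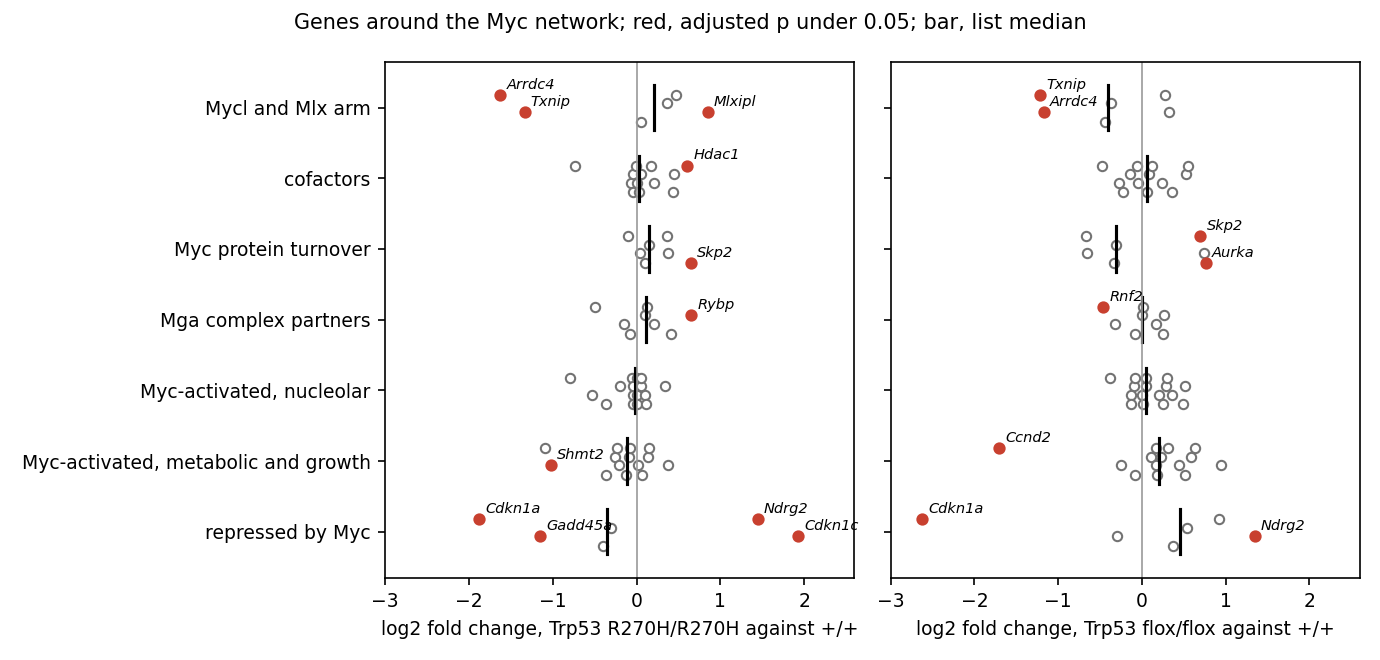
Log2 differences from Trp53+/+ of the genes of 7 lists around the Myc network, with 1 point per gene, Trp53R270H/R270H on the left and Trp53flox/flox on the right, red for an adjusted p under 0.05 and a black bar at the list median. The nucleolar genes lie around 0 in both panels with no red point, while Arrdc4, Txnip and Cdkn1a are red and below 0 in both.

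The genes that Myc is known to activate were read in lists for the nucleolus and for metabolism and growth. Of the 16 nucleolar genes, which serve ribosome production, limma called 0 in Trp53R270H/R270H against Trp53+/+ (median -0.02, range -0.80 to 0.33) and 0 in Trp53flox/flox against Trp53+/+ (median 0.05), with 4 and 3 at an unadjusted p under 0.05, where 12.2% and 11.3% of all genes were called and 3209 and 3489 of 10042 had such a p. Against Trp53flox/flox, 0 rose and 3 fell in Trp53R270H/R270H, with a median of -0.17: Rrp9, a component of the U3 small nucleolar particle, differed by -1.32 (adjusted p = 0.0338), Bop1, a factor for the large ribosomal subunit, by -0.69 (adjusted p = 0.0334) and Nop16, a nucleolar protein, by -0.58 (adjusted p = 0.0401). Nucleolin (Ncl) was at 259 and 259 RPKM in Trp53+/+, 249 and 273 RPKM in Trp53flox/flox and 264 and 254 RPKM in Trp53R270H/R270H, and is given because it heads the list. Its difference between Trp53R270H/R270H and Trp53+/+ was 0.00 with a 95% interval of -0.27 to 0.27. Nop16 lies on chromosome 13, where the median log2 differences from the Trp53+/+ mean were -0.29 and -0.38 in the Trp53R270H/R270H libraries. In Trp53flox/flox they were -0.09 and -0.07. The part of the chromosome in the Nop16 result was not tested.

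Of the 14 metabolic and growth genes, 0 rose and 1 fell in Trp53R270H/R270H against Trp53+/+, with a median of -0.11. The gene called was Shmt2, the mitochondrial serine hydroxymethyltransferase, at 182 and 180 RPKM in Trp53+/+, 175 and 166 RPKM in Trp53flox/flox and 76.9 and 103 RPKM in Trp53R270H/R270H, a fall of 1.02 on the log2 scale (adjusted p = 0.0217). Of the 14 differences 9 were below 0 there, as were 47.0% over all genes. In Trp53flox/flox against Trp53+/+, 0 were called higher and 1 lower, with a median of 0.21. The gene called was Ccnd2, the gene for cyclin D2, which differed by -1.70 (adjusted p = 0.0264). In that comparison 11 of the 14 differences were above 0, where 52.1% of all differences were below 0. An unadjusted limma p under 0.05 was reached by 6 of the 14, as by 34.7% of all genes. Against Trp53flox/flox, 0 rose and 5 fell in Trp53R270H/R270H with a median of -0.44, and 13 of the 14 differences were below 0, where 11.0% of all genes were called lower and 47.7% of all differences were below 0. The 3 with the greatest falls were Shmt2 with -0.93 (adjusted p = 0.0188), the spermidine synthase gene Srm with -0.79 (adjusted p = 0.0372) and the ornithine decarboxylase gene Odc1 with -0.67 (adjusted p = 0.0148). Srm and Odc1 act in polyamine synthesis. Odc1 was at 128 and 119 RPKM in Trp53+/+, 175 and 161 RPKM in Trp53flox/flox and 105 and 105 RPKM in Trp53R270H/R270H, so that its Trp53flox/flox libraries stood above both other genotypes.

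The E-box was in the promoter of 7 of the 12 metabolic and growth genes with a promoter entry (58.3%), and of 2 of the 12 nucleolar genes with one. The 7 were Cdk4, Eif4e, Hspd1, Impdh2, Ldha, Nme1 and Paics. The promoter of Cdk4, the cyclin D dependent kinase, held 4 matches and is shown for that reason, chosen after the matches had been counted. Counted from its start, they begin at -172, -118, -98 and -11.
Cdk4 site 1 (chr10:127063351-127063380, plus strand): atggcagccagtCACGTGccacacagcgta
Cdk4 site 2 (chr10:127063405-127063434, plus strand): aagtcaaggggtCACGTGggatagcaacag
Cdk4 site 3 (chr10:127063425-127063454, plus strand): atagcaacaggtCACGTGgccgtcagggcc
Cdk4 site 4 (chr10:127063512-127063541, plus strand): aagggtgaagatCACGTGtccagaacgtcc

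Cdk4 was at 355 and 318 RPKM in Trp53+/+, 489 and 292 RPKM in Trp53flox/flox and 299 and 315 RPKM in Trp53R270H/R270H. Its difference between Trp53R270H/R270H and Trp53+/+ was -0.13 (adjusted p = 0.769). Among the 5 metabolic and growth genes called against Trp53flox/flox, Ldha, the lactate dehydrogenase A gene, held the motif and differed by -0.57 (adjusted p = 0.0479).

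The 6 genes known to be repressed by Myc did not move one way. In Trp53R270H/R270H against Trp53+/+, 2 rose and 2 fell. Cdkn1c, the p57 cell cycle inhibitor, rose by 1.93 (adjusted p = 0.0150), from 6.42 and 4.87 RPKM to 23.5 and 24.8 RPKM. Ndrg2, a stress and differentiation gene, rose by 1.45 (adjusted p = 0.00367), from 5.97 and 6.39 RPKM to 17.6 and 19.6 RPKM. Cdkn1a, the p21 cell cycle inhibitor, differed by -1.88 (adjusted p = 0.0353) and Gadd45a, a growth arrest gene, by -1.15 (adjusted p = 0.0305). Both are also targets of p53.

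In Trp53flox/flox against Trp53+/+, 1 of these 6 rose and 1 fell, Ndrg2 with 1.34 (adjusted p = 0.00711) and Cdkn1a with -2.62 (adjusted p = 0.0206). Ndrg2 was at 17.4 and 17.1 RPKM there. Against Trp53flox/flox, 1 rose and 3 fell in Trp53R270H/R270H: Cdkn1c differed by 1.56 (adjusted p = 0.0173), Ndrg1 by -1.23 (adjusted p = 0.0205), Cdkn2b by -0.94 (adjusted p = 0.0223) and Gadd45a by -0.84 (adjusted p = 0.0412).

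Of 13 coactivator and corepressor genes through which Myc and its antagonists act, 1 rose and 0 fell in Trp53R270H/R270H against Trp53+/+ (median 0.02), and 0 were called by limma in Trp53flox/flox against Trp53+/+ (median 0.06), with 1 at an unadjusted p under 0.05. The gene called was Hdac1, a histone deacetylase of the Sin3 complex that Mxd proteins recruit, at 98.0 and 96.2 RPKM in Trp53+/+, 106 and 101 RPKM in Trp53flox/flox and 154 and 143 RPKM in Trp53R270H/R270H. It rose by 0.60 against Trp53+/+ (adjusted p = 0.0241) and by 0.51 against Trp53flox/flox (adjusted p = 0.0240). Ruvbl2, an ATPase of the Tip60 complex that Myc recruits, was the 1 cofactor that fell against Trp53flox/flox, with -1.26 (adjusted p = 0.0172), and its difference from Trp53+/+ was -0.74 (adjusted p = 0.0790).

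Among 7 genes that control the stability of the Myc protein, 1 rose and 0 fell in Trp53R270H/R270H against Trp53+/+, with a median of 0.15. This was Skp2, a ubiquitin ligase subunit, at 4.64 and 4.06 RPKM in Trp53+/+, 7.95 and 7.38 RPKM in Trp53flox/flox and 7.17 and 7.55 RPKM in Trp53R270H/R270H, with a difference of 0.65 (adjusted p = 0.0330). In Trp53flox/flox against Trp53+/+, 2 rose and 0 fell (median -0.31), Skp2 with 0.70 (adjusted p = 0.0310) and Aurka, the mitotic kinase Aurora A, with 0.76 (adjusted p = 0.0273). Gsk3b, a kinase that marks Myc for degradation, rose by 1.04 in Trp53R270H/R270H against Trp53flox/flox (adjusted p = 0.0293), the 1 gene of this list called there, where the median was 0.20.

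Of the 8 partners of Mga in its Polycomb complex, 1 rose and 0 fell in Trp53R270H/R270H against Trp53+/+ (median 0.12), Rybp with 0.65 (adjusted p = 0.0276), and 0 rose and 1 fell in Trp53flox/flox against Trp53+/+ (median 0.01), the ubiquitin ligase gene Rnf2 with -0.46 (adjusted p = 0.0424). Against Trp53flox/flox, 2 rose and 1 fell in Trp53R270H/R270H (median 0.13). Rnf2 rose by 0.87 (adjusted p = 0.00705), and Pcgf6, the Polycomb subunit particular to this complex, by 0.43 (adjusted p = 0.0461). Ring1, the paralog of Rnf2, fell by 0.75 (adjusted p = 0.0367). Rnf2 was at 30.9 and 29.5 RPKM in Trp53+/+, 21.6 and 21.7 RPKM in Trp53flox/flox and 41.9 and 38.9 RPKM in Trp53R270H/R270H, so that the genotypes stood in the same order as for Mga.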

How the data were processed

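Poly(A) RNA of intestinal tumor organoids was sequenced as 6 strand-specific libraries on a HiSeq 2500. Alignment to mm10 and the deposited RPKM values, made with StrandNGS, are the work of the authors. Its version, gene annotation and filters are not given in the sources used here. Low values appear to have been raised to 1, so the floor hides any lower level, and fold changes on log2(RPKM+1) understate those of low genes. The depth printed is an estimate from genes under 230 nt, and in Trp53flox/flox replicate 1 it rests on 7 genes.

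Genes reaching 4 RPKM in any library (10042 of 36172; 23760 were at the floor throughout) were tested in limma 3.58.1 (R 4.3.3) with lmFit and eBayes (trend=TRUE), all 6 libraries, no block, two-sided, with Benjamini-Hochberg adjustment over all genes tested and a threshold of 0.05. Tables and figures used Python 3.11.15, pandas 2.3.3, numpy 2.4.6 and matplotlib 3.10.9. Genes were placed by RefSeq gene identifier on GRCm38.p6, and Mycl, deposited as Mycl1, was matched that way. Nothing in the labels says that the 2 libraries of a genotype came from separate mice or cultures, so p-values measure only the spread between these libraries, which may be technical.

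The network genes, the 7 lists and the markers were chosen with earlier results of these data known. Named were all network genes, Trp53, the called genes of each list with the greatest change (up to 3 per direction and comparison) and the 5 genes most correlated with Myc, with Ncl, Cdk4 and Ldha and the genes holding an E-box named outside that rule after their values were seen. In a simulation that kept each genotype's own spread, for Trp53R270H/R270H against Trp53+/+ among 10042 genes, 58 of 100 genes changed by 1 log2 unit and 92 of 100 changed by 2 were called. Alternatives were another filter, pseudocount or scaling, eBayes without the trend, a weight per genotype, fits of 2 genotypes, a replicate block and leaving out each library.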

Additional observations from a re-analysis of the deposited data

How the results depend on the processing

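Each fit rests on 2 libraries a genotype, and leaving out any library leaves 1, which is assumed to vary like the others. The network genes called in Trp53R270H/R270H against Trp53+/+ (2) were 5 with a weight per genotype, 6 with these genotypes alone and 0 to 6 when 1 library was left out; in Trp53flox/flox against Trp53+/+ (0) they were 0 to 7 when 1 was left out; in Trp53R270H/R270H against Trp53flox/flox (2) they were 0, 0 and 0 to 6. The genes of the 7 lists called were, in the same order of comparisons, 11, 8 and 20, with a weight per genotype 34, 4 and 1, with 2 genotypes alone 34, 0 and 2, and with 1 library left out 0 to 33, 0 to 47 and 0 to 52. All genes called were 1227, 1133 and 2469, with a weight per genotype 5987, 150 and 534, with 2 genotypes alone 5721, 47 and 378, and with 1 library left out 0 to 5732, 8 to 6875 and 166 to 7259; a filter of any value above 1 RPKM gave 1907 in the first comparison. The rise in calls without a Trp53flox/flox library came with the loss of the pair with the widest spread (median SD 0.247 on the log2 scale, against 0.0463 in Trp53+/+ and 0.0621 in Trp53R270H/R270H).

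The replicate numbers did not pair the libraries: the deviations of same-numbered libraries correlated at 0.117, -0.291 and -0.196. With the replicate block, the network genes called were 1, 0 and 1, the list genes 6, 4 and 9 and all genes 550, 280 and 1156. In an alternative chosen after seeing the data, with the Trp53R270H/R270H numbers exchanged, the network genes called were 1, 0 and 2. Mxi1 in Trp53R270H/R270H against Trp53+/+ had adjusted p = 0.0706 with the block and 0.0514 with the exchanged one (range over all alternatives 0.000137 to 0.271), and Mxd3 against Trp53flox/flox had 0.0515 with the block (range 0.00122 to 0.209), while Myc kept both its calls with either block.

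Myc in Trp53R270H/R270H against Trp53flox/flox had adjusted p = 0.0748 with a weight per genotype and 0.0574 with these genotypes alone (range 0.00125 to 0.113). Directions reversed only when 1 library was left out. The ranges were -0.10 to 0.20 for Mxd4 in Trp53R270H/R270H against Trp53+/+ (reversed at -0.06 and -0.10), -0.64 to 1.33 for Mxd1 in Trp53flox/flox against Trp53+/+, and, in Trp53R270H/R270H against Trp53flox/flox, -1.11 to 0.87 for Mxd1, -0.26 to 0.029 for Max and -0.021 to 0.19 for Mnt (reversed at -0.021 and -0.0080). Without Mga among the antagonists, the mean ratio of Myc to their sum was 2.83 in Trp53+/+ and 1.37, now above 1, in Trp53R270H/R270H. Counting each comparison of a single network gene under each alternative, 347 kept their direction and side of the threshold, 31 newly passed it, 23 no longer passed it and 7 reversed. The floor of the table sets the lowest level that can be read, as for Mycn.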

Other observations

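The genes whose transcripts followed Myc most closely over the 6 libraries were Entpd6 (Pearson r = 0.997 on the log2 scale), Acaa2 (0.996), Obfc1 (0.996), Reep6 (0.995) and Fitm2 (0.993). These are correlations over 6 libraries that form 3 genotypes, out of 10041 genes, and 12 genes reached 0.99 or more. Acaa2, a mitochondrial enzyme of fatty acid oxidation, was at 66.9 and 68.9 RPKM in Trp53+/+, 57.0 and 58.2 RPKM in Trp53flox/flox and 41.5 and 43.8 RPKM in Trp53R270H/R270H. Reep6, a gene of the endoplasmic reticulum, was at 44.5 and 48.3 RPKM, 31.7 and 32.1 RPKM, and 14.9 and 15.2 RPKM. None of the genes fixed in the lists as Myc targets was among these 5. Those lists hold few of the 10041 genes, so this says nothing on how Myc targets follow Myc. Within the network, Mxi1 had r = 0.870 with Myc (rank 507), Mxd3 0.603, Max -0.06, Mxd1 -0.14, Mxd4 -0.23, Mga -0.42 and Mnt -0.74.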
